A study of Gallus gallus with 6 samples.

Results

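The enzymes that make dopamine, noradrenaline and serotonin, the transporter that packs them into vesicles, and transcription factors of the neurons that use them were followed in the brains of chick embryos (Gallus gallus). The set held 9 genes: TH, DDC, DBH, TPH1 and GCH1 for synthesis, SLC18A2 for storage, and NR4A2, PITX3 and LMX1B as transcription factors. Probe sets were taken where the platform annotation gave the symbol of 1 of these genes and no other, without regard to any measured value. This gave 16 of the 37693 chicken probe sets on the array, in 9 of 13008 named genes. DDC had 5 probe sets, DBH, SLC18A2 and NR4A2 had 2 each, and the other 5 genes had 1 each.

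The groups were 3 female and 3 male pools of whole brains at stage 29 (6 to 6.5 days of incubation), sexed genetically, with 5 to 8 embryos in a pool and 1 Affymetrix array for each pool. All groups were untreated as far as the labels say, and no strain is named in them. The W-linked gene HINTW, which males lack, gave 13.09 to 13.31 log2 units in female pools and 4.63 to 5.96 in male pools. The array values of any 2 pools of the same sex correlated at 0.991 to 0.995 over chicken probe sets (Pearson's r, 6 pairs).

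Tyrosine hydroxylase (TH) adds a hydroxyl group to tyrosine, aromatic amino acid decarboxylase (DDC) turns the product into dopamine, and dopamine beta-hydroxylase (DBH) turns dopamine into noradrenaline. Tryptophan hydroxylase (TPH1 or TPH2) and then DDC make serotonin, and GCH1 starts the synthesis of tetrahydrobiopterin, the cofactor of the hydroxylases. In the vertebrate brain many, though not all, cell bodies of these neurons lie in small groups in midbrain and hindbrain. The early embryonic brain holds few of these neurons among many progenitors and other neurons. In whole-brain RNA, fewer cells of a type and less RNA per cell cannot be told apart.

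The neuronal signal of the pools was read from 10 listed neuron genes, of which 8 were on the array. Of these, 7 had a mean above 4.21 log2 units, the 95th percentile of the mean signals of 689 viral probe sets on the same arrays, which served as a picture of background. STMN2, a microtubule regulator of growing neurons, had 12.68 ± 0.09 in female pools and 12.66 ± 0.11 in male pools (SD, n = 3 each). TUBB3, the neuronal tubulin, had 12.24 ± 0.23 in female pools and 11.80 ± 0.16 in male pools.

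None of the 16 probe sets passed the comparison of females with males (limma, Benjamini-Hochberg over all chicken probe sets, threshold 0.05), against 0.554% of all chicken probe sets. Their adjusted p ran from 0.256 to 0.983. The differences, given throughout as female minus male, ran from -0.29 to 0.26 log2 units with a median of -0.043, against -0.009 over all chicken probe sets. Of the 16, 6 lay above 0 and 10 below 0, where all chicken probe sets had 17720 above and 19973 below. At an unadjusted p under 0.05 there was 1 of the 16, against 10.4% of all chicken probe sets. The pools of the sexes did not overlap in 2 of the 16, against 16.2% of all chicken probe sets. In 1 of these, of LMX1B, females were higher (6.93% of all chicken probe sets), and in 1, of DDC, they were lower (9.26%). All these shares include genes of the sex chromosomes Z and W, while the 9 genes are autosomal. Of all chicken probe sets 42 passed as higher and 167 as lower in females. Shares over autosomal probe sets alone were not computed.

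The level itself limits what could be seen. Of the 16 probe sets, 7 had a mean at or above 4.21, in 5 genes: TH, DDC, TPH1, GCH1 and NR4A2. No probe set of DBH, SLC18A2, PITX3 or LMX1B reached it. The deposited values carry no detection call, so a value near or under this level is a bound on the signal and a difference there is compressed. A mean above it does not by itself show that a gene was detected. HINTW, which males lack, read 4.63 to 5.96 log2 units in male pools. The words above background stand here for a mean above this percentile and no more.

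**Figure D1:**
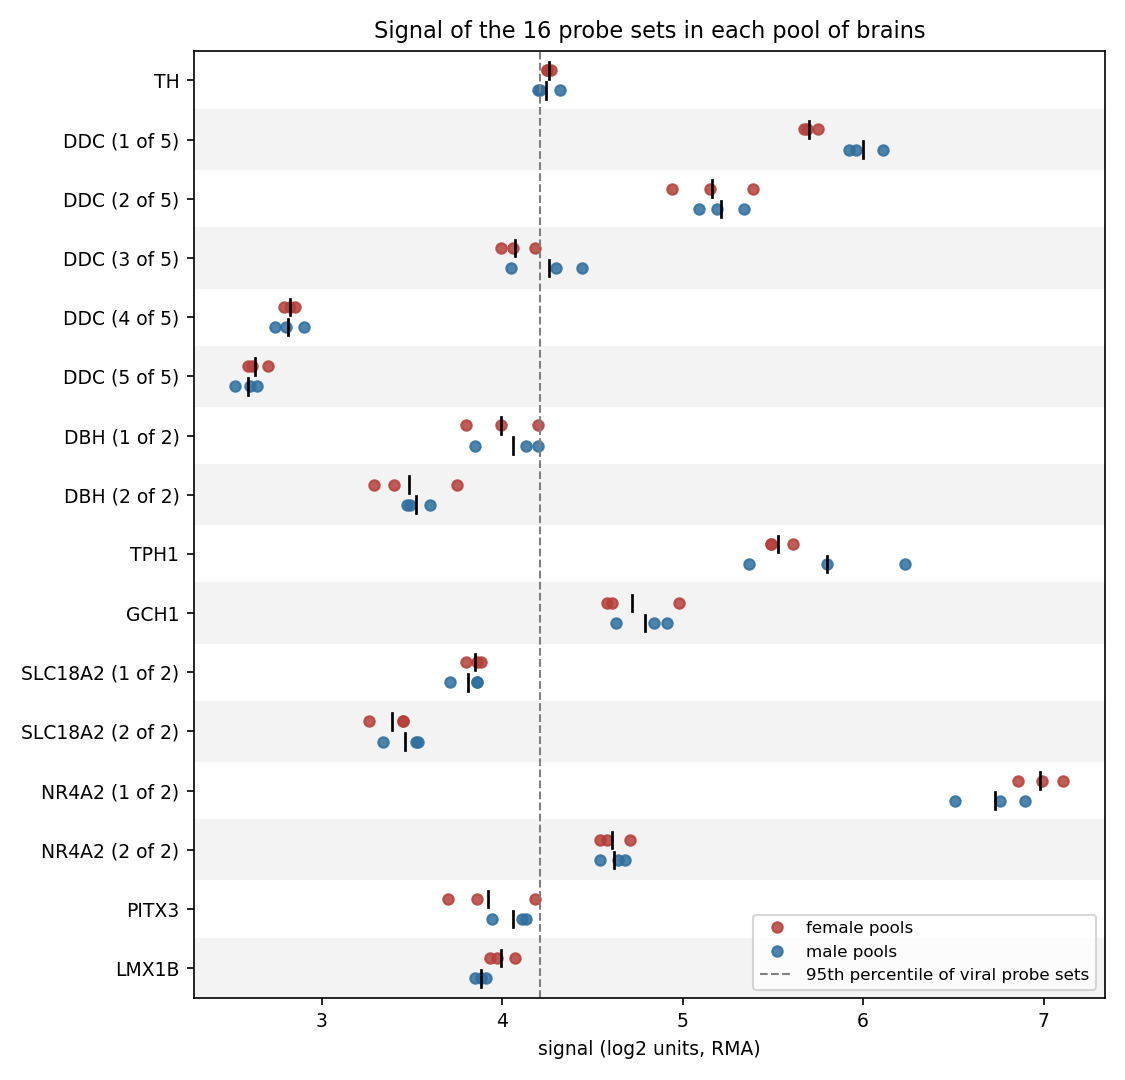
Signal in log2 units (x axis) of the 16 probe sets (rows, ordered by gene and, within a gene, by mean signal), with 1 point for each of 3 female pools (upper, red) and 3 male pools (lower, blue), and black ticks for group means. The dashed line is the viral 95th percentile of 4.21, and the points of DBH, SLC18A2, PITX3 and LMX1B all lie to the left of it.

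TH, the entry enzyme of dopamine and noradrenaline synthesis, lay at the edge of background. Its probe set read 4.25, 4.25 and 4.27 log2 units in female pools and 4.20, 4.21 and 4.32 in male pools. The female values fell inside the male range, and the whole range over 6 pools was 0.11. The difference was 0.01 (SE 0.07, 95% interval -0.15 to 0.18, limma adjusted p = 0.967), and as a female over male ratio the interval ran from 0.902 to 1.13. The mean of 4.25 was above that of 95.2% of viral probe sets, so the narrow interval is that of a probe set near background.

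DDC, the decarboxylase shared by the dopamine and serotonin routes, gave the smallest p of the 16. Its brightest probe set read 5.75, 5.69 and 5.67 log2 units in female pools and 5.96, 5.92 and 6.11 in male pools. Every female pool lay below every male pool. The difference was -0.29 (SE 0.08, 95% interval -0.47 to -0.11), a female over male ratio of 0.816, with an unadjusted p of 0.00589 and a limma adjusted p of 0.256, so it did not pass.

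The other probe sets of DDC did not share this separation. The next brightest read 5.15, 5.39 and 4.94 log2 units in female pools and 5.19, 5.09 and 5.34 in male pools, with the groups overlapping and a difference of -0.04 (SE 0.13, 95% interval -0.33 to 0.25). Another probe set, with a mean of 4.17 just under the viral percentile, read 4.06, 3.99 and 4.18 in female pools and 4.05, 4.44 and 4.30 in male pools. Its difference was -0.19 (SE 0.11, limma adjusted p = 0.609). The last pair, with means of 2.82 and 2.61, gave 0.01 and 0.05. In the naming used by Affymetrix the ending _s_at marks probes shared by several transcripts, and both brighter probe sets of DDC carry it, so what each of them measures is not settled by its symbol.

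Marker genes of blood, muscle and neurons were set beside the DDC value, and none of them passed. HBZ, an embryonic globin of red blood cells named here after its values were seen, had 11.23 ± 0.50 log2 units in female pools and 12.17 ± 0.27 in male pools (SD, n = 3 each), with no overlap, a difference of -0.94 and a limma adjusted p of 0.251. The other globins on the array overlapped between the sexes. HBA1 gave -0.11 (SE 0.16), HBAD -0.16 (SE 0.17) and HBE -0.28 (SE 0.20). Over the 4 blood genes on the array, all globins, the mean per pool ran from 11.44 to 12.12 in female pools and from 11.86 to 12.37 in male pools. Of 11 muscle genes 9 were on the array, 8 of them with differences below 0, and their median was -0.05. Over all 13008 named genes 7091 lay below 0, with a median of -0.02. At an unadjusted p under 0.05 (limma) there were 2 of the 9 muscle genes, against 12.7% of all genes. The mean over the 4 above background ran from 4.81 to 4.91 in female pools and from 5.00 to 5.08 in male pools, with no overlap. The muscle genes of smallest p, named after their values were seen, were MYL1, a myosin light chain under the viral percentile, at -0.38 (SE 0.09, limma adjusted p = 0.182) and the troponin TNNI2 at -0.33 (SE 0.09, limma adjusted p = 0.250). The mean over 7 neuron genes above background ran from 10.22 to 10.49 in female pools and from 9.95 to 10.26 in male pools. Of the 8 neuron genes on the array 7 had differences above 0 and 1 below, with a median of 0.32. Of these 8 genes 2 had an unadjusted p under 0.05 (limma), against 12.7% of all genes, and both lay above 0 without overlap. They were SYT1, named after its values were seen, at 0.41 (SE 0.09, limma adjusted p = 0.155) and TUBB3 at 0.45 (SE 0.13, limma adjusted p = 0.313). The part of blood, muscle or neuron content in the DDC difference was not tested.

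DBH, the last enzyme before noradrenaline, stayed under the viral percentile in both of its probe sets. The brighter read 3.80, 4.20 and 3.99 log2 units in female pools and 3.85, 4.13 and 4.20 in male pools. The ranges of the sexes were nearly the same. Its difference was -0.07 (SE 0.13, limma adjusted p = 0.899), and that of the other, with a mean of 3.50, was -0.04 (SE 0.12, limma adjusted p = 0.934).

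TPH1, the tryptophan hydroxylase best known from pineal gland and gut, varied most between pools. It read 5.61, 5.49 and 5.49 log2 units in female pools and 5.37, 5.80 and 6.23 in male pools. The female pools lay close together inside the male range, which held both the lowest and the highest pool. The SD was 0.07 in female and 0.43 in male pools, and the spread within groups was wider than that of 95.3% of chicken probe sets. The difference was -0.27 (SE 0.19, 95% interval -0.72 to 0.18, limma adjusted p = 0.678). It was -0.06 without male pool 3 and -0.49 without male pool 1, and over the 6 fits that each left out 1 pool the limma adjusted p ran from 0.376 to 0.934.

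The genes whose profile over the 6 pools was most like that of TPH1 were taken among 929 probe sets of other named genes above background with a range of at least 1 log2 unit. They were PSMD5, an assembly chaperone of the proteasome (Pearson's r = 0.919 over 6 pools), the cyclin CCNF (0.898), FBF1 (0.896), MCM6 of the replicative helicase (0.893) and STAM (0.860). TPH1 was itself highest in male pool 3, so genes chosen for following it tend to peak there by that choice. All 5 did, and PSMD5 had 8.91 log2 units there, against 7.30 to 7.40 in female pools and 7.38 and 7.52 in the other male pools. With 6 pools such values describe these arrays alone, and within a pool all genes share 1 RNA preparation and 1 array.

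TPH2, the form that serotonin neurons of the mammalian brain use, was measured by 1 probe set. It read 5.59, 5.15 and 5.13 log2 units in female pools and 5.16, 5.27 and 5.21 in male pools. Female pool 1 was highest and the other 5 pools lay within a narrow band, with a difference of 0.08 (SE 0.13, limma adjusted p = 0.877). Of the pineal enzymes that turn serotonin into melatonin, AANAT had 5.09 ± 0.02 in female pools and 5.08 ± 0.14 in male pools (SD, n = 3 each). ASMT had 2.93 ± 0.08 in female pools and 3.13 ± 0.12 in male pools, both under the viral percentile.

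GCH1, the entry enzyme of cofactor synthesis, read 4.61, 4.58 and 4.98 log2 units in female pools and 4.63, 4.91 and 4.84 in male pools. Female pool 3 was highest and the groups overlapped. The difference was -0.07 (SE 0.13, 95% interval -0.37 to 0.23, limma adjusted p = 0.888), and it was -0.20 without female pool 3 (limma adjusted p = 0.627).

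SLC18A2, the vesicular monoamine transporter, was under the viral percentile in both probe sets. The brighter read 3.86, 3.80 and 3.88 log2 units in female pools and 3.86, 3.86 and 3.71 in male pools. The groups overlapped and the difference was 0.04 (SE 0.08, limma adjusted p = 0.899). The other, with a mean of 3.42, gave -0.07 (SE 0.09, limma adjusted p = 0.832). Both carry the ending for shared probes.

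NR4A2, a nuclear receptor that midbrain dopamine neurons of the mouse need and that other neurons also express, had the largest positive difference of the 16. Its brighter probe set read 6.86, 7.11 and 6.99 log2 units in female pools and 6.90, 6.51 and 6.76 in male pools. The highest male pool lay just above the lowest female pool. The difference was 0.26 (SE 0.12, 95% interval -0.01 to 0.53, limma adjusted p = 0.502), a female over male ratio of 1.20, and it ran from 0.15 to 0.35 when each pool was left out in turn. The other probe set of NR4A2, with a mean of 4.62, read 4.71, 4.58 and 4.54 in female pools and 4.64, 4.68 and 4.54 in male pools. Its difference was -0.01 (SE 0.08, 95% interval -0.20 to 0.17).

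PITX3, a homeodomain factor of midbrain dopamine neurons and of the lens, read 3.86, 4.18 and 3.70 log2 units in female pools and 3.94, 4.11 and 4.13 in male pools. The female pools spanned the male range. The difference was -0.15 (SE 0.13, 95% interval -0.44 to 0.15, limma adjusted p = 0.744). It was -0.28 without female pool 2 and -0.04 without female pool 3. CRYAA, a lens crystallin on the list of eye markers and named here for that role, had 3.66 ± 0.13 in female pools and 3.69 ± 0.09 in male pools (SD, n = 3 each), also under the viral percentile.

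LMX1B, a LIM homeodomain factor that serotonin neurons of the mouse need, read 3.97, 4.07 and 3.93 log2 units in female pools and 3.91, 3.88 and 3.85 in male pools. Every female pool lay above every male pool, all 6 under the viral percentile. The difference was 0.11 (SE 0.07, 95% interval -0.06 to 0.28, limma adjusted p = 0.652).

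**Figure D2:**
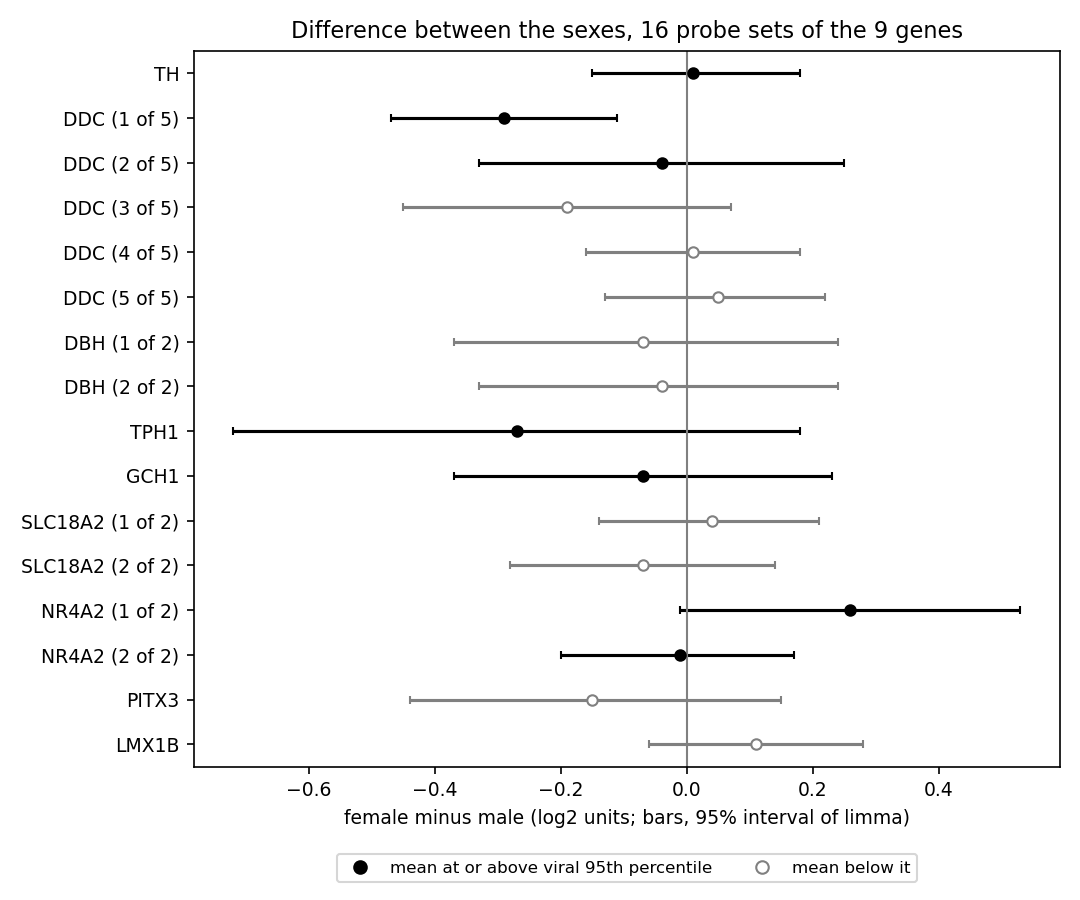
Female minus male difference in log2 units (x axis) for the 16 probe sets (rows), with limma's 95% interval as bars. Filled points have a mean at or above the viral 95th percentile and open points lie below it. The interval of the brightest DDC probe set is the only one that does not reach 0, before any adjustment over the array.

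Over the 16 probe sets the 95% intervals reached at most from -0.72 (TPH1) to 0.53 (NR4A2) log2 units. The widest had a half-width of 0.45 and the narrowest 0.16. These intervals are taken before any adjustment over the array, so they do not give the smallest difference that could pass. With 3 pools of each sex a larger difference could also fail to pass. All 9 genes are autosomal by the RefSeq annotation of the assembly GRCg7b. TH, TPH1 and GCH1 lie on chromosome 5, SLC18A2 and PITX3 on chromosome 6, DBH and LMX1B on chromosome 17, DDC on chromosome 2 and NR4A2 on chromosome 7.

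The pools also differed in HOX genes, which mark hindbrain and spinal cord. In female pool 3, set against the average over the remaining pools, 7 of the 17 HOX genes on the array stood at -3.67 to -1.06 log2 units and the others at -0.26 to 0.17. Of the 17, only 10 had a mean above the viral percentile, and these 7 were all among them. A gene under that percentile has little room to fall. In the same pool the 16 probe sets stood at -0.34 to 0.26 against the average over the remaining pools, with 10 of them below it. The same limit holds for them. Only 7 of the 16 had a mean at or above the viral percentile, with TH at its edge, so most had little room to fall. Female pool 3 was the lowest pool for 5 of the 16 and the highest for 2. Without it the difference of the brightest DDC probe set was -0.28, that of NR4A2 0.26, that of TPH1 -0.25 and that of LMX1B 0.14. PITX3 gave -0.04 without it, against -0.15 over all pools, the next probe set of DDC 0.07 against -0.04, and the dimmer one of DBH 0.05 against -0.04. None of the 16 passed without it. HOXA6, named after its values were seen, was also low in male pool 3. It read 7.18, 6.91 and 4.19 log2 units in female pools and 6.38, 6.20 and 4.40 in male pools.

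**Figure D3:**
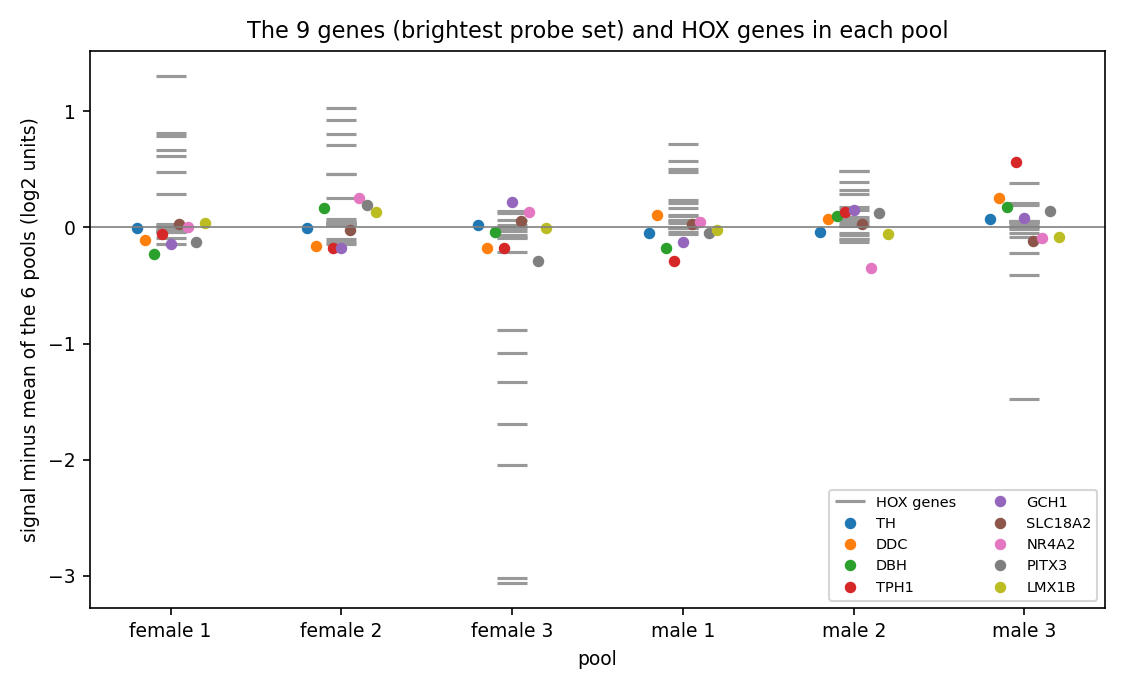
Signal minus the mean of all 6 pools in log2 units (y axis) for each pool (x axis), with 1 coloured point per gene for the brightest probe set of the 9 genes and grey bars for 17 HOX genes. In female pool 3, 7 HOX genes lie far below 0 while the coloured points stay near it, and TPH1 stands highest in male pool 3. DBH, SLC18A2, PITX3 and LMX1B, under the viral percentile, and TH, at its edge, had little room to fall. HOXA6 lies far below 0 in male pool 3 as well.

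The rest of the pathway was read from lists of related genes, each by its brightest probe set. Of all 13008 named genes 0.923% passed (0.108% higher in females), 12.7% had an unadjusted p under 0.05, and the median difference was -0.02. Genes of Z and W are included in these shares. The 6 genes of the tetrahydrobiopterin cofactor were all above background and all had differences below 0, from -0.27 to -0.06 with a median of -0.12, and none passed (limma, 0 at an unadjusted p under 0.05). GCHFR, which regulates GCH1, read 5.77, 6.16 and 6.25 log2 units in female pools and 6.22, 6.56 and 6.21 in male pools, with overlap and a difference of -0.27 (SE 0.15, limma adjusted p = 0.586). PTS, the enzyme after GCH1, gave -0.16 (SE 0.08), PCBD2 -0.10 (SE 0.09) and QDPR, which recycles the cofactor, -0.06 (SE 0.14).

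Of the 6 other genes of monoamine synthesis 4 were on the array, with a median of -0.05, and none passed (limma, 0 at an unadjusted p under 0.05). HDC, which makes histamine, gave -0.11 (SE 0.12) under the viral percentile. Of 11 genes of uptake, storage and breakdown 9 were on the array and 6 above background, with a median of -0.03, and none passed (limma, 0 at an unadjusted p under 0.05). HNMT, which inactivates histamine, gave 0.12 (SE 0.10) and the aldehyde dehydrogenase ALDH1A1 -0.16 (SE 0.09), which lay under the viral percentile. ALDH1A1 lies on the sex chromosome Z, unlike the 9 genes. The aldehyde dehydrogenase ALDH2 gave 0.05 (SE 0.12) and the aldose reductase AKR1B1 -0.14 (SE 0.12).

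Some of these were named for their role after their values were seen. Monoamine oxidase A (MAOA) had 6.49 ± 0.08 log2 units in female pools and 6.56 ± 0.10 in male pools (SD, n = 3 each), while MAOB had 3.75 ± 0.18 in female pools and 3.81 ± 0.08 in male pools. The serotonin transporter SLC6A4 had 3.42 ± 0.06 in female pools and 3.45 ± 0.11 in male pools, under the viral percentile like SLC18A2. The noradrenaline transporter SLC6A2 had 4.33 ± 0.28 in female pools and 4.29 ± 0.15 in male pools, near it. FEV, the ETS factor of serotonin neurons in the mouse, had 7.75 ± 0.04 in female pools and 7.76 ± 0.02 in male pools.

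Of 27 receptor genes for dopamine, serotonin and adrenergic signals 23 were on the array and 14 above background. Their median was 0.03, and none passed (limma, 1 at an unadjusted p under 0.05). That gene was HTR7, a serotonin receptor, with 4.07 ± 0.14 log2 units in female pools and 4.36 ± 0.10 in male pools (SD, n = 3 each), a difference of -0.29 (SE 0.10, limma adjusted p = 0.366). Its mean over all pools, 4.22, lay at the edge of the viral percentile, with the female mean under it. The dopamine receptor DRD5 read 6.22, 5.85 and 6.18 in female pools and 6.24, 6.33 and 6.68 in male pools. Its groups did not overlap, and the difference was -0.33 (SE 0.15, limma adjusted p = 0.488). The adrenergic receptor ADRA2A, at 0.24 (SE 0.12), and the serotonin receptor HTR1B, at 0.05 (SE 0.07), did not pass.

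Of 28 factors and markers of midbrain dopamine neurons 21 were on the array, with a median of -0.02, and 1 passed. GFRA1, the receptor of the dopamine neuron survival factor GDNF, was higher in females: it read 6.37, 5.99 and 5.61 log2 units in female pools and 4.82, 4.85 and 4.41 in male pools. No male pool reached the lowest female pool, and the difference was 1.29 (SE 0.20, limma adjusted p = 0.0441). The call was lost in 5 of the 6 fits that left out 1 pool, where the difference ran from 1.11 to 1.48, and held without female pool 3 (limma adjusted p = 0.0322). GFRA1 is known from many neuron types and marks no dopamine neuron by itself. Its partner RET, named for that role after its values were seen, gave 0.26 (SE 0.13, limma adjusted p = 0.561).

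The other midbrain genes did not pass. OTX2, a homeobox gene of forebrain and midbrain, gave 0.32 (SE 0.14, limma adjusted p = 0.483), NEUROD6 0.23 (SE 0.12) and DLK1 0.18 (SE 0.07, limma adjusted p = 0.452). The signal of OTX2 was 10.67 log2 units in female pool 3 and 9.93 to 10.36 in the other pools. FOXA2, a floor plate factor upstream of dopamine neurons in the mouse, read 4.77, 4.76 and 4.73 log2 units in female pools and 4.81, 4.76 and 4.83 in male pools, with a difference of -0.05 (SE 0.07). EN1, named for its role in midbrain after its values were seen, had 6.90 ± 0.01 in female pools and 6.97 ± 0.12 in male pools (SD, n = 3 each).

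Of 14 factors of noradrenaline and serotonin neurons 8 were on the array, with a median of 0.04, and none passed (limma, 3 at an unadjusted p under 0.05). PHOX2A and LMX1A had no matched probe set and were not analysed here. GATA3, a zinc finger factor of serotonin neurons among others, read 7.80, 7.68 and 8.01 log2 units in female pools and 7.31, 7.32 and 7.55 in male pools. Every female pool lay above every male pool, and the difference was 0.44 (SE 0.11, limma adjusted p = 0.233). GATA2 gave 0.25 (SE 0.08, limma adjusted p = 0.350), TFAP2B 0.30 (SE 0.11, limma adjusted p = 0.429) and NKX6-1 -0.14 (SE 0.20). The male mean of GATA2, 4.19, lay under the viral percentile and its female mean, 4.44, above it. NKX6-1 had 8.13 in female pool 3 and 8.68 to 8.89 in the other pools.

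**Figure D4:**
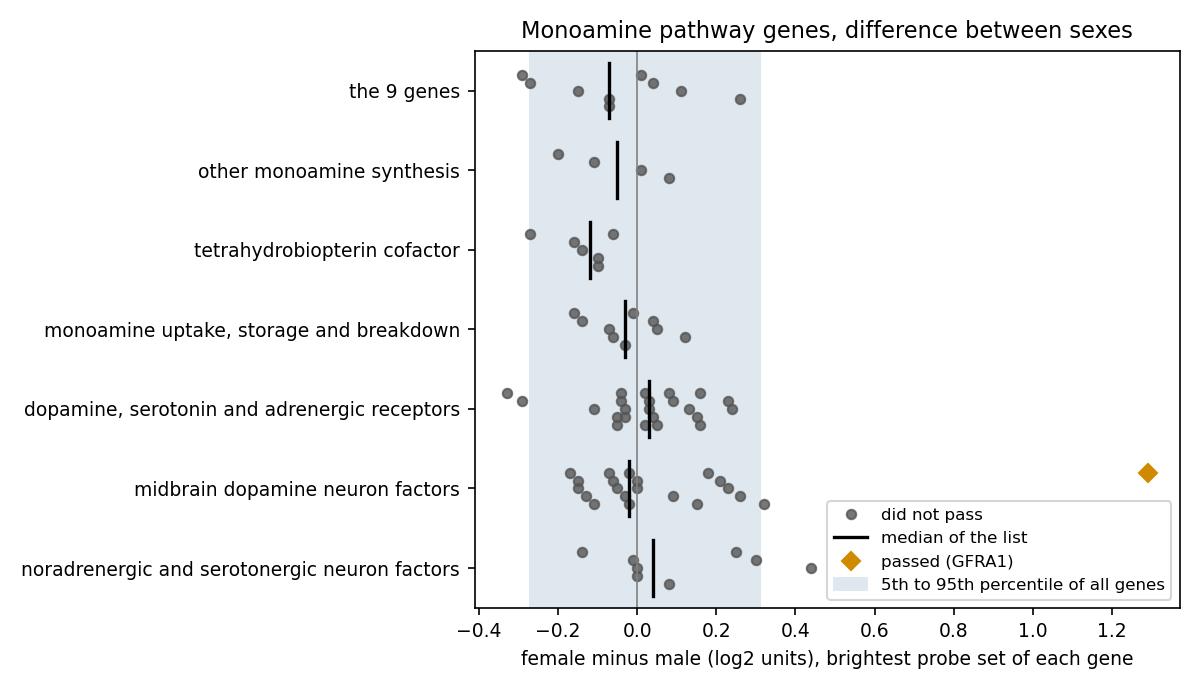
Female minus male difference in log2 units (x axis) for the brightest probe set of each gene in 7 lists (rows), with black bars for list medians and a shaded band from the 5th (-0.27) to the 95th (0.31) percentile of all 13008 genes. GFRA1, at 1.29, is the only gene that passed and lies apart from all others.

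Markers of neighbouring tissues and of brain regions were read the same way. For eye and pigment cells 11 of 13 were on the array and 5 above background, with a mean of these per pool of 5.78 to 5.83 log2 units in female pools and 5.81 to 5.91 in male pools. For neural crest, sympathetic and chromaffin cells, where TH and DBH are also made, 7 of 11 were on the array and 5 above background, at 7.90 to 8.06 in female pools and 7.87 to 8.13 in male pools. For the pineal gland and photoreceptors 8 of 12 were on the array and 4 above background, at 4.99 to 5.12 in female pools and 5.01 to 5.17 in male pools. No gene of these 3 lists passed (limma, 0 in each at an unadjusted p under 0.05). Their part in the values of TPH1, DBH and TH was not tested. For mesenchyme and skin 11 of 11 were on the array and 10 above background, at 5.62 to 5.79 in female pools and 5.57 to 5.75 in male pools, and none passed (limma, 2 at an unadjusted p under 0.05). For midbrain and forebrain 8 of 13 were on the array, all above background. The mean per pool was 8.27 to 8.49 in female pools and 8.14 to 8.37 in male pools. Their median difference was 0.24, against -0.02 over all genes, with 5 above 0 and 3 below. None passed (limma, 3 at an unadjusted p under 0.05, against 12.7% of all genes). These 3 were named after their values were seen. TAL2 gave -0.62 (SE 0.12, limma adjusted p = 0.112), DLX5 0.45 (SE 0.12) and EMX2 0.27 (SE 0.10). Against the average over the remaining pools, the 5 of this list above 0 stood at 0.28 to 0.50 in female pool 3. The 3 below 0 stood at -0.38 to 0.04 there, and the part of this pool in the median was not tested.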

How the data were processed

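Total RNA of 6 pools of brains was copied from oligo(dT) primers, labelled and put on 1 array each, per the labels' protocols. The deposited values are log2 signals. The authors made them with RMA (affy), as the submitters' processing notes name it, with no version given in the sources used here. The method equalises the arrays and gives no detection call. No scaling was added. The table held 38535 probe sets, of which 153 control and reporter and 689 viral ones were left out. The other 37693 were fitted with lmFit and eBayes of limma (version 3.58.1, under R version 4.3.3), female minus male and two-sided. P-values were adjusted by Benjamini-Hochberg, and a probe set passed at an adjusted p under 0.05. The procedure was tested on simulated data. Intervals are those of the moderated fit at 95%. The number of arrays limits the precision. P-values set a difference against the moderated spread within each sex. With 1 array for each pool, the spread of pools and that of arrays cannot be told apart.

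All probe sets of the 9 genes are named. From the lists these were genes that passed, the 2 of smallest p and the 2 of highest signal in the pathway lists, with TPH2 and FOXA2, and other names are marked. Members, lists and this rule were chosen with earlier results of these data known. Genes were placed on chromosomes by gene identifier, for which 16 of 16 probe sets matched. Alternatives were a filter at the viral percentile, other variance settings, array weights, other scalings, the replicate number as a block and leaving out each pool.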

Additional observations from a re-analysis of the deposited data

How the results depend on the processing

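No probe set of the 9 genes passed under any of the 12 alternative fits (limma; the fit with a filter on dim probe sets held 7 of the 16), and in 108 recalculated differences of their brightest probe sets, or of the mean of all probe sets of a gene, the smallest adjusted p was 0.233. Of these 108 differences 101 kept their sign and 7 turned it, each of them close to 0. They were TH at -0.006 without male pool 1 and -0.005 without male pool 2, DBH at 0.031 without female pool 1 and 0.004 without male pool 3, GCH1 at 0.001 without female pool 2, and SLC18A2 at -0.011 without male pool 3 and -0.017 as the mean of its 2 probe sets. With each pool left out in turn TH ran from -0.006 to 0.051, DBH from -0.17 to 0.031, GCH1 from -0.196 to 0.001 and SLC18A2 from -0.011 to 0.064. The signs of the brightest probe sets of DDC, TPH1, NR4A2, PITX3 and LMX1B held in all fits run, though as the mean of all probe sets of the gene DDC was -0.094 (brightest alone -0.293) and NR4A2 0.123 (brightest alone 0.258). PITX3 ran from -0.279 to -0.04 with each pool left out. The next probe set of DDC ran from -0.16 to 0.07 and the dimmer one of NR4A2 from -0.06 to 0.02, so these turned sign.

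The count over all probe sets, 209, ran from 113 to 161 when 1 pool was left out, with 113 when female pool 2 was dropped, 129 for female pool 3 and 130 for male pool 1. Leaving out 1 pool moved the count of midbrain dopamine genes that passed between 0 and 1, and that of blood genes between 0 and 1, where HBZ passed at -1.23 without female pool 1. With the replicate number as a block 245 probe sets passed, and no gene of the lists other than GFRA1 did. Deviations from the mean of each sex correlated between the female and male pool of the same number at r = 0.01, 0.15 and 0.32. Female pools 1, 2 and 3 against male pools of other numbers gave -0.13 to 0.11, -0.21 to 0.07 and -0.24 to -0.08. For numbers 2 and 3 the value of the same number was the higher. Deviations within a sex add up to 0, so a higher value with 1 male pool forces lower values with the others. The values of a female pool are therefore not separate comparisons. The main fit did not take the numbers as pairs, and whether they stand for a shared batch was not tested. Signal over background limits DBH, SLC18A2, PITX3 and LMX1B most.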
